A study of Mus musculus with 8 samples.

Results

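The MEK5 knockdown of 4T1 cells was compared with the control hairpin across every gene in the deposited tables. The comparison rests on 5 of the 8 libraries of the series, 2 labelled shMEK5 and 3 labelled shCTRL, each with values for 24454 genes. 4T1 is a mouse mammary carcinoma line that spreads from the mammary fat pad of BALB/c mice. The shMEK5 cells carried a lentiviral short hairpin against murine Map2k5, which encodes the kinase MEK5, and the shCTRL cells carried a non-targeting hairpin from the same vector system. A further group, shERK5, carried a hairpin against Mapk7, the gene of ERK5, and its 3 libraries served here only to set values side by side. All 3 groups were infected with virus-containing supernatant from HEK293T cells, selected in puromycin and grown in the same serum-containing medium. Each target was represented by 1 hairpin, the labels do not say whether the lines were clones or pools, and no rescue with a resistant Map2k5 was among the libraries used here. The labels also do not say whether the replicates came from separate cultures, so each p-value reflects how far libraries of a group lay apart, a spread that may be technical.

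MEK5 is a dual-specificity kinase. It is phosphorylated by the upstream kinases MEKK2 and MEKK3 and has a single well-known substrate, ERK5. ERK5 is a mitogen-activated protein kinase with a long C-terminal tail that acts in the nucleus on MEF2 factors and induces Krüppel-like factors, and the cascade is known for roles in vascular integrity, proliferation and the invasive behaviour of carcinoma cells. Type I interferon follows a separate route. Cytosolic sensors of foreign or misplaced nucleic acid signal through adaptors to IRF3 and IRF7, which induce the gene of interferon-beta. The secreted protein then acts through its receptor, JAK kinases and a complex of transcription factors on genes that hold an interferon-stimulated response element.

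The measure was CPM, the reads of a gene scaled to a common total of reads assigned to genes. The 8 libraries held between 41397315 and 53714288 reads, so that 1 read was worth 0.0186 to 0.0242 CPM, and a gene with no read could have had a level of up to 0.0559 to 0.0725 CPM (3 reads, counting error only). Replicates of a group differed by more than read sampling, with a chi-square per degree of freedom between 7.715 and 39.13. Of 20 markers of immune, endothelial, fibroblast and muscle cells, 18 stayed under 1 CPM in all 8 libraries and 7 were at 0 in all. The exceptions were Cd68 and Pdgfra, and the summed level of the 20 genes was 35.0 to 50.4 CPM in shCTRL and 36.9 to 38.3 CPM in shMEK5. The summed level of 9 epithelial identity genes was 1844 to 2029 CPM in shCTRL and 1426 to 1489 CPM in shMEK5. Krt8 and Krt18 made up most of it and were the 2 called lower, while 4 of the 9, Cdh1 among them, were called higher. In RNA from whole cultures, fewer cells of a kind and less RNA per cell cannot be told apart.

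Map2k5, the target of the hairpin, was lower in both shMEK5 libraries. The gene (Entrez 23938, chromosome 9, 63163768 to 63381682, GRCm38) stood at 35.2, 37.0 and 36.8 CPM in the shCTRL libraries, against 14.1 and 14.4 CPM in the shMEK5 libraries. Both shMEK5 values lay below all 3 control values, and the difference on log2(CPM + 1) was -1.29 (SE 0.06, limma adjusted p = 1.84e-07). In the shERK5 libraries it was 36.1, 36.8 and 37.1 CPM. Mapk7, the substrate of MEK5, had 25.6, 28.6 and 26.1 CPM in shCTRL and 20.4 and 18.7 CPM in shMEK5. It was lower in both shMEK5 libraries, by a log2 difference of -0.44 (SE 0.08, limma adjusted p = 0.000923), against -1.88 in the cells with the ERK5 hairpin.

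Changes in the rest of the cascade were small. Map3k3, which encodes the upstream kinase MEKK3, differed by -0.21 (SE 0.06, limma adjusted p = 0.0115), and Map3k2, which encodes MEKK2, by -0.15 (SE 0.12, limma adjusted p = 0.316) with overlapping groups. Of genes reported to answer to ERK5, Klf4 had a log2 difference of -0.32 (SE 0.10, limma adjusted p = 0.0257) and Klf2 stayed under 1 CPM in every library of both groups. Other reported targets went the opposite way. Sgk1, a serum- and glucocorticoid-induced kinase, had 81.1, 80.9 and 79.3 CPM in shCTRL and 119.5 and 129.5 CPM in shMEK5, a log2 difference of 0.62 (SE 0.05, limma adjusted p = 8.95e-06), while in the cells with the ERK5 hairpin it differed by -0.43. Myc was 0.45 higher on the log2 scale, Jun 0.48 and Ccnd1, the gene of cyclin D1, 0.20, with limma adjusted p-values of 0.0113, 0.00790 and 0.00790. The MEF2 genes Mef2a and Mef2d differed by 0.02 and -0.02 and did not pass the test. Without shMEK5 replicate 1 the calls of Map3k3, Myc, Jun and Ccnd1 were lost (limma adjusted p = 0.0852, 0.0786, 0.0639 and 0.0950). That of Klf4 was lost without shMEK5 replicate 2, where its difference was -0.18 (limma adjusted p = 0.257), and without shCTRL replicate 2 or 3. Over the list of cascade members and reported targets, 4 (1 without shMEK5 replicate 1) of 15 tested genes were called higher and 5 (3 without shCTRL replicate 2, shCTRL replicate 3 or shMEK5 replicate 2) lower.

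Across the transcriptome the change was broad and mostly small. A gene was tested when it reached 1 CPM in at least 2 of the 8 libraries, which kept 11623 genes, and it was called at a limma adjusted p under 0.05. By that rule 2684 genes were called higher in shMEK5, 23.1% of those tested, and 2979 were called lower, 25.6%. The median log2 difference was -0.02 and the interquartile range ran from -0.22 to 0.18. A called change of at least 2-fold was found for 191 genes upward, 1.64%, and for 126 downward, 1.08%. Both shMEK5 values lay above every control value for 3744 of the 11623 tested genes and below every control value for 4239. A lack of overlap stated for single genes is to be read against these counts. Because 1 CPM was added before taking logs, the fold changes of genes near or under that level come out too small. Of the tested genes, 75 passed the level filter only through the shMEK5 libraries and so had to differ. Among those named here are Ifnb1, Zbp1, Ifit3, Ifit3b, Mx1, Cxcl11, Egfr, Postn and Tex101, whose values are a description. In the counts that follow, shares of a list are to be read against 23.1% and 25.6%. With 1 library left out these shares were 20.8% to 21.1% higher and 22.7% to 23.2% lower without a shCTRL library, 17.6% and 19.3% without shMEK5 replicate 1, and 16.2% and 17.8% without shMEK5 replicate 2.

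**Figure D1:**
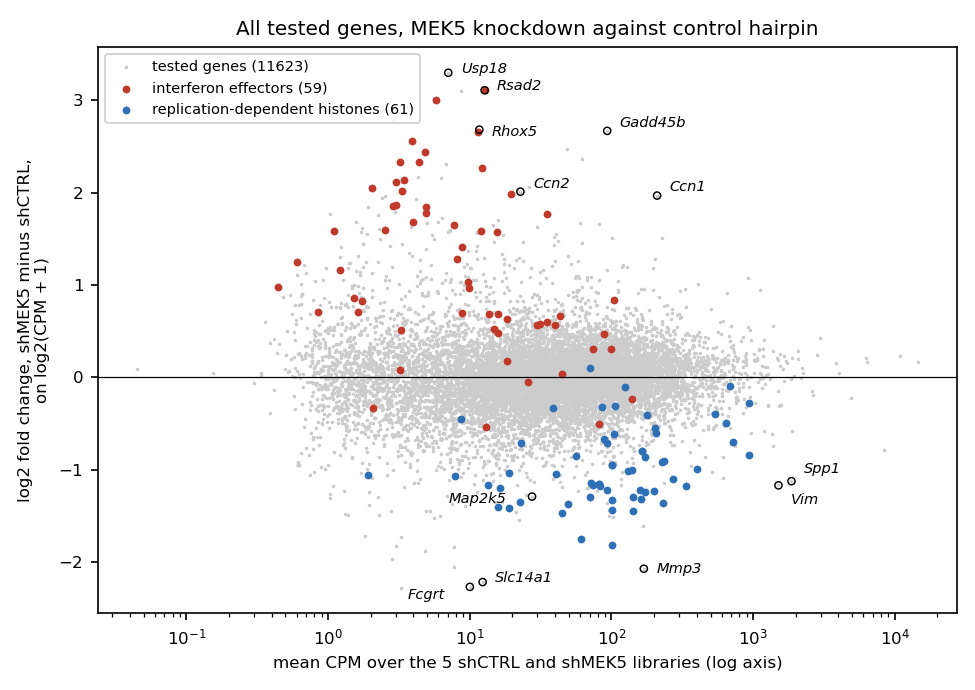
Each point is 1 of 11623 tested genes, with its mean CPM over the 3 shCTRL and 2 shMEK5 libraries on a log axis and its log2 difference, shMEK5 minus shCTRL, on log2(CPM + 1). The 59 tested interferon effectors (red) reach from -0.54 to 3.11 and the 61 replication-dependent histone genes (blue) lie almost all below 0, with single genes of other groups ringed and named.

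Genes were ranked by the size of the log2 difference among called genes with a mean of at least 5 CPM over the 5 libraries, groups that did not overlap and an established symbol, histones aside. The 12 of these that rose furthest were Usp18, Rsad2, Cxcl10, Cmpk2, Rhox5, Gadd45b, Rtp4, Apol9a, Apol9b, Tgfb2, Ifit1 and Irf7. Of these, Rhox5, Gadd45b and Tgfb2 are not known chiefly as interferon-response genes. The 12 that fell furthest were Fcgrt, Slc14a1, Mmp3, Mgat3, Sned1, Slpi, Hhip, Adgre5, Ptgs1, Add2, Slc5a3 and Eya2, which encode an antibody receptor, a urea transporter, secreted proteins, an adhesion receptor, enzymes and a transcriptional co-activator among others. Apol9a and Apol9b are near-identical neighbours, so their counts may have been split between them by the authors' counting.

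The transcript of interferon-beta itself was close to undetected in control cells and present in both shMEK5 libraries. Ifnb1 (Entrez 15977) was covered by 2, 1 and 0 reads in the shCTRL libraries and by 78 and 151 reads in the shMEK5 libraries, against 1 read in each of the 3 shERK5 libraries. As CPM these were 0.0384, 0.0234 and 0 CPM in shCTRL and 1.88 and 3.18 CPM in shMEK5. The ratio of the summed reads, adjusted for depth, was 121, with an exact 95% interval of 40.7 to 589 that covers counting error only. On the log2(CPM + 1) scale the difference was 1.77 (SE 0.14, limma adjusted p = 5.83e-06), and the gene passed the level filter only through the shMEK5 libraries. No other type I, type II or type III interferon gene in the list reached the filter. The window of 250 bases upstream of the Ifnb1 start (chr4:88522795-88523044, minus strand, GRCm38.p6, RefSeq) is shown because it is the regulatory region of the one ligand that rose. Capitals mark matches to the interferon regulatory factor core AANNGAAA, which begin 159, 139 and 126 bases before the start, and to a kappa-B form GGGNNNTTCC, which begins 116 bases before it, all searched on both strands after the window had been read.
Ifnb1: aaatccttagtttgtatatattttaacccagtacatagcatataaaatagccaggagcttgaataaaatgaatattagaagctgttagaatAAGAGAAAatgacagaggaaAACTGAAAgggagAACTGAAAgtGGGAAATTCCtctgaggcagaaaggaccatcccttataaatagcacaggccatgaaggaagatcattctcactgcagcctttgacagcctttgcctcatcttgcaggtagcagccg
Of all 32851 promoter windows in the RefSeq table, 23.9% hold AANNGAAA and 5.56% hold GGGNNNTTCC somewhere from 250 bases before to 50 bases after the start.

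All 6 RNA sensors of the list were called higher in shMEK5. Downstream of them, 1 of 4 adaptors (0 without shCTRL replicate 1 or 2), 0 of 2 kinases and 2 of 3 factors were called higher. Of all tested genes 23.1% were. In the whole list of sensors and adaptors, 13 of 24 tested genes were called higher and 4 (0 without shMEK5 replicate 1) lower, with a median log2 difference of 0.22 against -0.02 over all genes. Ddx58, which encodes RIG-I, a sensor of short triphosphate RNA, had 54.8, 56.2 and 60.03 CPM in shCTRL and 158 and 172 CPM in shMEK5, a log2 difference of 1.51 (SE 0.06, limma adjusted p = 1.48e-07). Ifih1, which encodes MDA5, a sensor of long double-stranded RNA, had 9.78, 9.33 and 8.91 CPM in shCTRL and 28.1 and 30.1 CPM in shMEK5, a difference of 1.54 (SE 0.10, limma adjusted p = 1.72e-06). In both, the shMEK5 libraries stood well above every control. Zbp1, which binds left-handed nucleic acid, stood at 0.25, 0.281 and 0.547 CPM in the shCTRL libraries and 3.82 and 2.92 CPM in the shMEK5 libraries. It passed the level filter only through shMEK5 and so had to differ, which leaves 5 sensors called higher of 5 that passed otherwise. Among the 6 were also Dhx58, a regulator of RIG-I, at 1.19, and Eif2ak2, which rose least of them, by 0.33. Trim25, a further regulator of RIG-I, was higher by 0.66.

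The DNA-sensing branch and the shared adaptors gave small and mixed values. Cgas, the enzyme that makes the second messenger for STING, differed by 0.44 (SE 0.06, limma adjusted p = 0.000251). Sting1 itself had 27.9, 27.3 and 26.8 CPM in shCTRL and 21.5 and 25.1 CPM in shMEK5 and a difference of -0.23 (SE 0.08, limma adjusted p = 0.0360), and Mavs, the mitochondrial adaptor of RIG-I and MDA5, -0.22 (SE 0.08, limma adjusted p = 0.0510). Irf3, the factor that starts interferon-beta transcription, had 39.4, 42.4 and 42.7 CPM in shCTRL and 34.1 and 35.0 CPM in shMEK5, a difference of -0.26 (SE 0.06, limma adjusted p = 0.00751). Tbk1, the kinase that activates IRF3, was not called at 0.01. By contrast Irf7, itself induced by interferon, had 1.77, 2.18 and 2.21 CPM in shCTRL and 12.6 and 12.5 CPM in shMEK5, a difference of 2.15 (SE 0.09, limma adjusted p = 1.32e-07), and Irf5 rose by 1.08. The calls of Irf3 and Sting1 were lost without shMEK5 replicate 1 (limma adjusted p = 0.0551 and 0.321, the log2 difference of Sting1 then being -0.12), and that of Sting1 also without any 1 shCTRL library (0.0622 to 0.0783), by edgeR (0.0522) and by DESeq2 (0.0518).

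Among receptors and transducers, 4 of 6 factor genes were called higher, and neither receptor chain for type I interferon nor any of the 3 kinases was. Across that list 8 of 20 tested genes were called higher and 2 lower. Ifnar1 and Ifnar2, the receptor chains, differed by -0.22 (SE 0.09, limma adjusted p = 0.0533) and 0.01 (limma adjusted p = 0.934), neither called. Stat2, a factor of the complex that the receptor activates, had 13.9, 13.2 and 12.6 CPM in shCTRL and 30.2 and 32.8 CPM in shMEK5, a difference of 1.19 (SE 0.10, limma adjusted p = 7.40e-06). Irf9, its DNA-binding partner, differed by 1.43 (SE 0.07, limma adjusted p = 3.77e-07). Irf1 was higher by 1.05 (SE 0.06, limma adjusted p = 1.02e-06). The kinase genes went the other way, with Jak2 at 124, 106 and 107 CPM in shCTRL and 72.3 and 61.1 CPM in shMEK5, a difference of -0.75 (SE 0.11, limma adjusted p = 0.000533), and Tyk2 at -0.45 (SE 0.08, limma adjusted p = 0.000730), while Jak1 was not called at 0.08. Usp18, the brake that displaces JAK1 from the receptor, had the largest log2 difference of all tested genes on log2(CPM + 1), a scale that understates genes near 0 such as Ifnb1. It had 0.615, 1.05 and 0.679 CPM in shCTRL and 17.0 and 15.9 CPM in shMEK5, a difference of 3.30 (SE 0.11, limma adjusted p = 4.43e-08), with 3.57, 3.76 and 3.33 CPM in the shERK5 libraries.

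The effectors, the antiviral proteins made downstream, rose nearly as a block. Of 68 effector genes in the list 59 passed the level filter, 6 of them only through shMEK5. In total 50 of 59 tested genes were called higher and 4 (2 without shMEK5 replicate 2) lower. Of the 59, 29 were called at least 2-fold higher, and the median log2 difference was 0.97. The summed level of all 68 genes was 959.4 to 1025 CPM in shCTRL, 1511 to 1515 CPM in shMEK5 and 1133 to 1176 CPM in shERK5. All 9 tested PARP and TRIM genes were called higher, as were 6 of 7 of the oligoadenylate synthetase group. The 11 GTPase genes called higher (8 with either shMEK5 library left out) include 4 that passed the filter only through shMEK5, and the 7 of 8 RNA-binding effectors called higher were counted among genes of which 2 did.

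Rsad2 encodes viperin, an enzyme that makes a chain-terminating nucleotide, and Cmpk2 beside it in the genome supplies the substrate. Rsad2 had 1.81, 2.69 and 2.74 CPM in shCTRL and 28.1 and 28.3 CPM in shMEK5, a log2 difference of 3.11 (SE 0.13, limma adjusted p = 9.77e-08). Cmpk2 had 0.672, 0.982 and 0.679 CPM in shCTRL and 13.0 and 13.4 CPM in shMEK5, a difference of 3.00 (SE 0.10, limma adjusted p = 4.07e-08). In both genes the 2 knockdown libraries were nearly equal. Both are among the genes that rose furthest, a set that required groups not to overlap, so these values had to lie above the controls. Ifit1, which binds RNA without the host cap modification, had 4.36, 4.14 and 4.25 CPM in shCTRL and 24.3 and 24.2 CPM in shMEK5, a difference of 2.26 (SE 0.07, limma adjusted p = 4.07e-08), and Ifit2, Ifit3 and Ifit3b rose by 1.03, 2.05 and 1.59. Isg15, a ubiquitin-like protein, went from 1.33, 0.632 and 0.898 CPM in the shCTRL libraries to 5.82 and 7.93 CPM in the shMEK5 libraries. Mx1, a dynamin-like GTPase of the nucleus, was covered by 4, 0 and 1 reads in shCTRL and 68 and 60 in shMEK5, a depth-adjusted ratio of 40.4 (exact 95% interval 16.9 to 127, counting error only). Mx2 had 2.02, 1.92 and 2.04 CPM in shCTRL and 9.32 and 9.23 CPM in shMEK5 and differed by 1.78 (SE 0.09, limma adjusted p = 4.40e-07).

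The guanylate-binding proteins and immunity-related GTPases, which coat vacuoles that hold microbes, rose from about 1 CPM. Gbp3 had 0.653, 0.678 and 0.657 CPM in shCTRL and 9.45 and 8.23 CPM in shMEK5, a difference of 2.56 (SE 0.10, limma adjusted p = 7.23e-08). Gbp2 had 1.27, 0.795 and 1.07 CPM in shCTRL and 10.7 and 7.99 CPM in shMEK5, a difference of 2.33 (SE 0.14, limma adjusted p = 1.02e-06). Igtp had 0.999, 1.38 and 0.898 CPM in shCTRL and 10.2 and 10.4 CPM in shMEK5, a difference of 2.44 (SE 0.13, limma adjusted p = 4.40e-07). Both shMEK5 values exceeded every control value in each of the 3 genes. Irgm1 and Oasl1 stood higher in the controls. Irgm1 had 7.88, 8.87 and 8.19 CPM in shCTRL and 27.2 and 26.3 CPM in shMEK5, a difference of 1.58 (SE 0.08, limma adjusted p = 3.63e-07). Oasl1, an oligoadenylate synthetase-like protein, had 15.8, 18.5 and 17.5 CPM in shCTRL and 56.4 and 66.5 CPM in shMEK5, a difference of 1.77 (SE 0.09, limma adjusted p = 3.85e-07). Members of these families share sequence, and the sources used here do not give how the authors counted reads that fit several copies.

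Among the 4 effectors called lower (2 without shMEK5 replicate 2), Ifitm2, Lgals3bp and Zc3hav1 gave log2 differences of -0.51, -0.54 and -0.24. Without shMEK5 replicate 2 the call of Zc3hav1 was lost (limma adjusted p = 0.150).

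The windows upstream of 4 effector genes are shown because, among genes of the interferon lists whose window holds a match to the interferon-stimulated response element, these 4 rose furthest. Capitals mark GAAANNGAAA on either strand. The windows are Rsad2 at chr12:26456453-26456702 (minus strand), Gbp3 at chr3:142559794-142560043 (plus), Igtp at chr11:58199306-58199555 (plus) and Gbp2 at chr3:142620413-142620662 (plus), all GRCm38.p6 from RefSeq, and the matches begin 120, 45 and 39 (overlapping), 34 and 59 bases before the start.
Rsad2: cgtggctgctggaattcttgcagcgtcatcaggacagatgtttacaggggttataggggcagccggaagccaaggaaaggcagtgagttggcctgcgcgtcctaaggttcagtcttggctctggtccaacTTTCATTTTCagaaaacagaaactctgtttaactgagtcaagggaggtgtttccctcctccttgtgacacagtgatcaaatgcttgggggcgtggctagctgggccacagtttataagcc
Gbp3: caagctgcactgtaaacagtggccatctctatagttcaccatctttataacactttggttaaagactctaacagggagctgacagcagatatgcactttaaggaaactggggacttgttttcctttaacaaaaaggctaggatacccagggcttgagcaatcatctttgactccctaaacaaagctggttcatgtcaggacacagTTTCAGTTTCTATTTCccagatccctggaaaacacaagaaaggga
Igtp: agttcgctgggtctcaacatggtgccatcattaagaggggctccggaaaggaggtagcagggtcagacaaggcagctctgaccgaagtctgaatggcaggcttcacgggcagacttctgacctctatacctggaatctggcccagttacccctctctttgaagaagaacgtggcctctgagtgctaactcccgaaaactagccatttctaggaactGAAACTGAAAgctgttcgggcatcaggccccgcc
Gbp2: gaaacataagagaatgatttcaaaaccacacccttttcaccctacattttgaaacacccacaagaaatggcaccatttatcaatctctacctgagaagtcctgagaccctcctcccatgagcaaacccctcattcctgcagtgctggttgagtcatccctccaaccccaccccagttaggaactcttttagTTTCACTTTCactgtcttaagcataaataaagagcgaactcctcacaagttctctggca
The match was counted from 250 bases before to 50 bases after each start. It was present in 3.44% of all 32851 windows and in 2.9% of those of tested genes. Of 50 effector genes called higher, 38 had 47 windows in the table, and 48.9% of these held it, in 21 genes. Of the 10 windows of effectors tested and not called higher, 30% held it. Among genes called at least 2-fold higher the share was 16.2% of windows, and 7.55% once the interferon lists were left out, against 4.07% for genes called at least 2-fold lower. The AANNGAAA core printed for Ifnb1 is contained in every GAAANNGAAA match by construction, so the shares of the 2 motifs are not independent. A match is a description of the letters in this window.

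**Figure D2:**
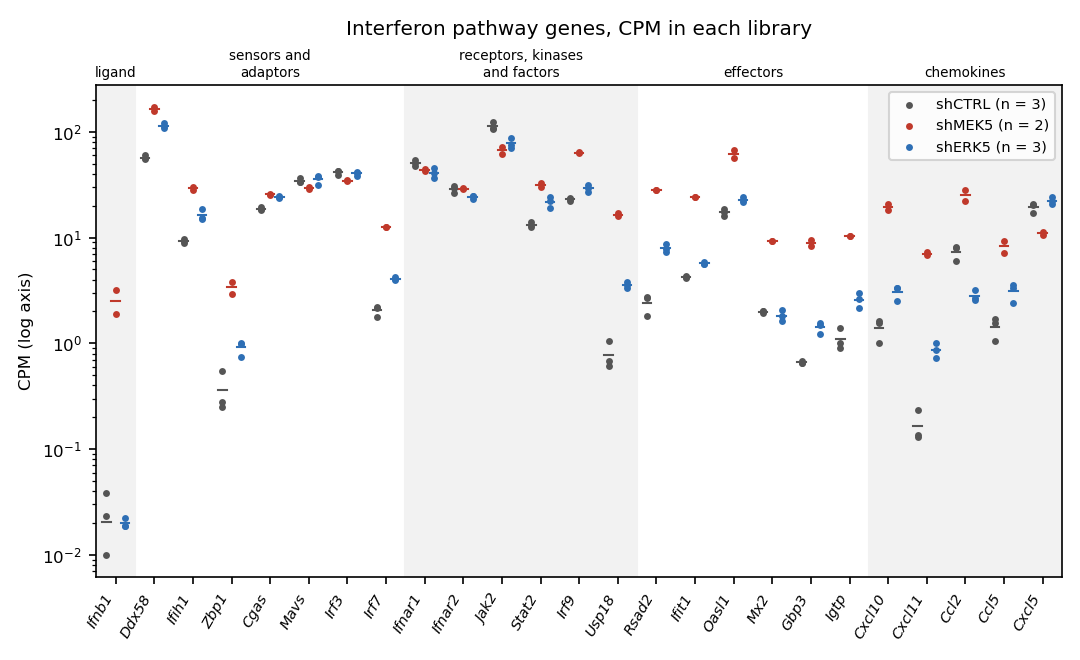
CPM of 25 interferon pathway genes in every library on a log axis, grouped by role, with points for libraries and short lines for group means in shCTRL (n = 3), shMEK5 (n = 2) and shERK5 (n = 3). The red shMEK5 points lie above both other groups for Ifnb1, Irf7, Stat2, Irf9 and the effectors shown, while Mavs, Irf3, Ifnar1, Jak2 and Cxcl5 are level or lower, and the 1 shCTRL library with no Ifnb1 read is drawn as the lowest point.

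Chemokine genes that reached the filter mostly rose. Only 11 of 28 chemokine genes passed the filter, 2 through shMEK5 alone, and 9 of 11 tested genes were called higher and 1 lower. Cxcl10 attracts T cells and natural killer cells through CXCR3. It had 0.999, 1.57 and 1.62 CPM in shCTRL and 18.3 and 20.7 CPM in shMEK5, a difference of 3.11 (SE 0.14, limma adjusted p = 2.04e-07), and 2.49, 3.34 and 3.35 CPM in shERK5. Cxcl11, a second CXCR3 ligand, was covered by 7, 10 and 6 reads in shCTRL and 281 and 347 in shMEK5, a depth-adjusted ratio of 43.1 (exact 95% interval 28.5 to 68.5). Ccl5 had 1.56, 1.05 and 1.69 CPM in shCTRL and 7.2 and 9.34 CPM in shMEK5, a difference of 1.93 (SE 0.16, limma adjusted p = 1.16e-05). Ccl2, which attracts monocytes, had 5.94, 7.91 and 8.14 CPM in shCTRL and 22.4 and 28.0 CPM in shMEK5, a difference of 1.65 (SE 0.14, limma adjusted p = 9.72e-06), and stood at 2.66, 3.16 and 2.54 CPM in shERK5. The neutrophil chemokines did not move together: Cxcl1 differed by 0.28, a call lost without shMEK5 replicate 1 (limma adjusted p = 0.0856), and Cxcl5 was lower, with 21.0, 16.9 and 20.1 CPM in shCTRL and 10.5 and 11.4 CPM in shMEK5 and a difference of -0.76 (SE 0.10, limma adjusted p = 0.000133).

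Among genes of antigen presentation, the MHC class I chains rose and the rest moved in both directions. All 7 heavy and light chain genes of MHC class I were called higher, and in the whole list 11 of 21 tested genes were called higher and 4 (2 without shMEK5 replicate 2) lower, none of them by 2-fold. H2-K1 had 461, 506 and 489 CPM in shCTRL and 689 and 672 CPM in shMEK5, a difference of 0.49 (SE 0.05, limma adjusted p = 3.63e-05), and B2m, the light chain, 0.39 (SE 0.05, limma adjusted p = 8.48e-05). Tap1, which moves peptides into the endoplasmic reticulum, differed by 0.75 (SE 0.08, limma adjusted p = 3.46e-05), and the immunoproteasome subunit Psmb8 by 0.73 (SE 0.08, limma adjusted p = 3.56e-05). Erap1, which trims those peptides, had 50.6, 49.5 and 49.1 CPM in shCTRL and 36.7 and 33.5 CPM in shMEK5, a difference of -0.49 (SE 0.07, limma adjusted p = 0.000317). Several of these genes stood higher still in the shERK5 libraries: Tap2 differed from shCTRL by 0.33 in shMEK5 and 1.16 in shERK5, and the difference between the knockdowns was -0.82 (SE 0.07, limma adjusted p = 9.22e-06). The class I heavy chain genes are near copies of each other, which leaves the split of reads between them uncertain.

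Of ligands at immune checkpoints, 5 (3 without shCTRL replicate 1, shMEK5 replicate 1 or shMEK5 replicate 2) of 8 tested genes were called higher and 1 (2 without shCTRL replicate 3, 0 without shMEK5 replicate 2) lower. Of 5 tested stress ligands, which alert natural killer cells, 1 was called higher. Cd274, the gene of PD-L1, had 2.63, 1.94 and 2.76 CPM in shCTRL and 4.30 and 4.75 CPM in shMEK5, a difference of 0.69 (SE 0.12, limma adjusted p = 0.000899). Cd47, which signals to macrophages not to engulf, was higher by 0.45 (SE 0.05, limma adjusted p = 5.07e-05). Among genes of the NF-kappa-B pathway 13 of 24 tested genes were called higher and 4 lower. The feedback inhibitor gene Nfkbia had 75.1, 81.5 and 77.3 CPM in shCTRL and 156 and 168 CPM in shMEK5, a difference of 1.05 (SE 0.06, limma adjusted p = 7.76e-07), and the deubiquitinase gene Tnfaip3 also lay above every control, with a difference of 0.91 (SE 0.09, limma adjusted p = 2.17e-05). Ripk1, the kinase at the tumour necrosis factor receptor, fell from 43.8, 41.2 and 42.0 CPM in the shCTRL libraries to 21.9 and 21.1 CPM in the shMEK5 libraries, a difference of -0.95 (SE 0.06, limma adjusted p = 2.23e-06). Cytokine genes split, and 5 of 10 tested genes were called higher and 4 (2 without shMEK5 replicate 1) lower. Csf1, the macrophage growth factor, had 149.6, 168 and 168 CPM in shCTRL and 291 and 303 CPM in shMEK5, a difference of 0.87 (SE 0.06, limma adjusted p = 3.90e-06). The interleukin-23 subunit gene Il23a differed by 0.92 (SE 0.07, limma adjusted p = 3.25e-06), and Tslp, an epithelial cytokine, by -0.49 (SE 0.06, limma adjusted p = 0.000116).

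Most tested targets of the co-activators YAP and TAZ rose. YAP and TAZ bind TEAD factors and are held out of the nucleus by the Hippo kinases. Of 16 tested targets 13 were called higher and 0 lower by limma, and the count called lower was also 0 at an unadjusted p under 0.05, by edgeR and by DESeq2. In the list with the upstream genes, 17 of 34 tested genes were called higher and 3 lower. Ccn1, a secreted matrix-associated protein also called CYR61, had 81.8, 104 and 105 CPM in shCTRL and 395 and 364 CPM in shMEK5, a log2 difference of 1.97 (SE 0.11, limma adjusted p = 1.93e-06). Ccn2, also called CTGF, had 9.38, 10.6 and 9.33 CPM in shCTRL and 42.0 and 42.6 CPM in shMEK5, a difference of 2.01 (SE 0.07, limma adjusted p = 6.65e-08). In each gene both shMEK5 libraries lay above all controls. The 2 genes parted in the other knockdown: Ccn1 stood at 361, 318 and 343 CPM in shERK5 and Ccn2 at 8.90, 8.51 and 8.52 CPM, and the difference of Ccn2 between the knockdowns was 2.17 (SE 0.07, limma adjusted p = 6.04e-08).

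Tgfb2, also counted among these targets, rose by 2.31 and is given with the TGF-beta family below. Other genes of the list rose less than Ccn1 and Ccn2. Amotl2, a scaffold that binds YAP and is counted with the upstream genes, had 215, 285 and 294 CPM in shCTRL and 459.6 and 431 CPM in shMEK5. Its difference was 0.76 (SE 0.13, limma adjusted p = 0.00145). Crim1 had 105, 98.1 and 105 CPM in shCTRL and 185 and 163 CPM in shMEK5, a difference of 0.75 (SE 0.06, limma adjusted p = 7.33e-06), and F3, the gene of tissue factor, 0.86 (SE 0.07, limma adjusted p = 5.92e-06). Ajuba and Ankrd1 were higher by 0.50 and 0.46. The co-activators did not rise with their targets: Yap1 differed by 0.06 with overlapping groups, and Wwtr1, the gene of TAZ, had 204, 192 and 192 CPM in shCTRL and 160.2 and 148 CPM in shMEK5, a difference of -0.34 (SE 0.05, limma adjusted p = 0.000476). Tead1 was higher by 0.65.

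The windows upstream of Ccn1, Amotl2 and Crim1 are shown because, among list genes called higher whose window holds the TEAD letters GGAATG, these rose furthest. The letters, in capitals on either strand, begin 103, 65 and 79 bases before the start. No window with these letters was found for Tgfb2, Ccn2 and F3, which rose further than Amotl2 and Crim1. They lie at chr3:145649986-145650235 (minus strand), chr9:102717554-102717803 (plus) and chr17:78199998-78200247 (plus), GRCm38.p6, RefSeq.
Ccn1: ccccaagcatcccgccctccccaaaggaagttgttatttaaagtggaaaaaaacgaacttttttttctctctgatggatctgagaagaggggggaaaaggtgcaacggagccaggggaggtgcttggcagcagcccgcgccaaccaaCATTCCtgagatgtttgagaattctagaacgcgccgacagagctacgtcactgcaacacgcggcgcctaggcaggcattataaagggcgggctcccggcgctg
Amotl2: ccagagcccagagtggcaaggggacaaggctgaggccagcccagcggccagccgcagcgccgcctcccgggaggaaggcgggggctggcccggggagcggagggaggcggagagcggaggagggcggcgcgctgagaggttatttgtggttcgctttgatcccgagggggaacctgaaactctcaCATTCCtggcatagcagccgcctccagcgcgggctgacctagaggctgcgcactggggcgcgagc
Crim1: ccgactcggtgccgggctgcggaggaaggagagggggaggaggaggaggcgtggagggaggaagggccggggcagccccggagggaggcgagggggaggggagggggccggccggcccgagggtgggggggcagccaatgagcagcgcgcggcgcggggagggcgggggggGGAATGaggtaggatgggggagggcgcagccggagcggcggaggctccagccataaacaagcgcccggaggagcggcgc
GGAATG was found from 250 bases before to 50 after the start in 14.7% of all windows, in 12% of those of tested genes and in 64.3% of the 14 windows of YAP/TAZ list genes called higher. Of the 39 list genes 20 were entered as reported targets, for which a high share is part of how they are known. The rest were 6 in the co-activator group and 13 kinases and scaffolds. Windows of list genes not called higher, such as Yap1, Wwtr1 and Tead3, held the letters too, and no share was computed for such genes.

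Changes in genes of the contractile cytoskeleton were small and more often up than down. Across actin and focal adhesion genes, 19 (12 without shMEK5 replicate 2) of 36 tested genes were called higher and 4 lower. Tpm1, a tropomyosin that lies along actin filaments, had 797, 827 and 840.1 CPM in shCTRL and 1552 and 1607 CPM in shMEK5, a difference of 0.94 (SE 0.05, limma adjusted p = 3.44e-07). The crosslinker gene Actn1 differed by 0.74 (SE 0.06, limma adjusted p = 6.80e-06), and the myosin heavy chain gene Myh9 by 0.54 (SE 0.05, limma adjusted p = 9.00e-06). Vcl, the gene of vinculin, was not called at 0.13.

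Ligands and antagonists of the TGF-beta family were among the largest single changes. Tgfb2 had 1.63, 2.36 and 2.12 CPM in shCTRL and 15.1 and 13.0 CPM in shMEK5, a log2 difference of 2.31 (SE 0.11, limma adjusted p = 3.77e-07). Inhba, the subunit of activin A, had 2.90, 2.53 and 2.74 CPM in shCTRL and 10.9 and 10.9 CPM in shMEK5, a difference of 1.68 (SE 0.08, limma adjusted p = 3.63e-07), while in shERK5 it stood at 2.77, 2.8 and 2.68 CPM. The difference of Inhba between the knockdowns was 1.67 (SE 0.08, limma adjusted p = 4.27e-07). The activin-binding antagonists rose as well. Fst had 0.596, 0.257 and 0.701 CPM in shCTRL and 3.14 and 3.83 CPM in shMEK5, a difference of 1.57 (SE 0.15, limma adjusted p = 2.12e-05). Fstl3 had 15.9, 18.0 and 18.9 CPM in shCTRL and 41.8 and 40.5 CPM in shMEK5, a difference of 1.18 (SE 0.08, limma adjusted p = 2.23e-06). Both antagonists lay above every control in the 2 shMEK5 libraries. Id1 and Id3, which answer to bone morphogenetic proteins, fell, with differences of -0.90 (SE 0.11, limma adjusted p = 8.10e-05) and -0.39 (SE 0.07, limma adjusted p = 0.00138). Over the list, receptors and Smad genes included, 14 of 37 tested genes were called higher and 8 lower.

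Other growth factors gave a mixed set. Nrg1, a ligand of the ERBB3 receptor, had 5.94, 6.57 and 6.74 CPM in shCTRL and 18.2 and 18.2 CPM in shMEK5, a difference of 1.37 (SE 0.08, limma adjusted p = 7.86e-07), and lay above every control in both shMEK5 libraries. Areg, a ligand of the EGF receptor, had 109, 113 and 108 CPM in shCTRL and 71.0 and 75.6 CPM in shMEK5, a difference of -0.58 (SE 0.06, limma adjusted p = 3.63e-05), and lay below every control. Hbegf was higher by 0.45. Egfr itself rose from 0.692, 0.866 and 0.788 CPM in the shCTRL libraries to 2.20 and 2.40 CPM in the shMEK5 libraries. Pdgfb, which attracts pericytes, had 37.3, 44.9 and 48.8 CPM in shCTRL and 141 and 138 CPM in shMEK5, a difference of 1.66 (SE 0.10, limma adjusted p = 2.12e-06). Vegfc, the lymphatic growth factor, had 8.95, 11.3 and 12.9 CPM in shCTRL and 28.7 and 25.1 CPM in shMEK5, a difference of 1.22 (SE 0.13, limma adjusted p = 4.99e-05). Vegfa and Vegfb were lower, with differences of -0.28 (SE 0.05, limma adjusted p = 0.00109) and -0.54 (SE 0.10, limma adjusted p = 0.00116). Among VEGF, PDGF and FGF ligands, 3 of 11 tested genes were called higher and 6 lower.

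**Figure D3:**
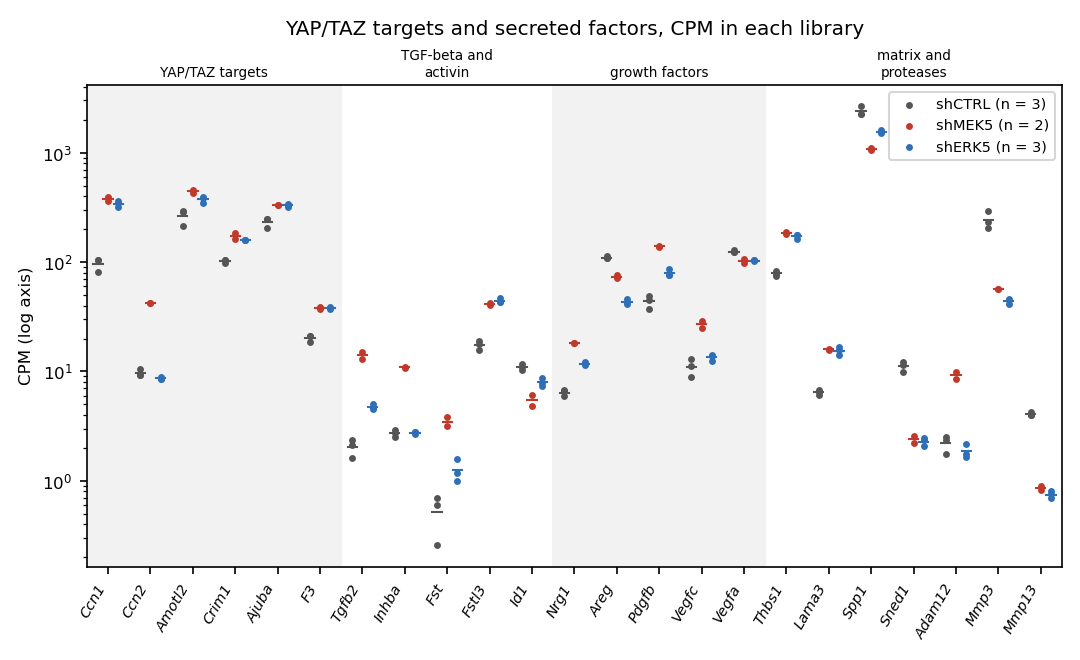
CPM of 23 genes of YAP/TAZ targets, TGF-beta and activin members, growth factors, matrix proteins and proteases in every library on a log axis, with points for libraries and short lines for group means. Amotl2 is drawn with the YAP/TAZ targets but counted in the text with the upstream genes. Ccn2, Inhba and Adam12 are high only in the shMEK5 points, Ccn1, Fstl3, Thbs1 and Lama3 are high in both knockdowns, and Sned1, Mmp3 and Mmp13 are low in both.

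Matrix genes were called higher more often than lower. Of 37 tested genes 14 were called higher and 6 lower, against 23.1% and 25.6% of all tested genes. Thbs1, the gene of thrombospondin-1, had 83.4, 74.9 and 78.4 CPM in shCTRL and 189 and 181 CPM in shMEK5, a difference of 1.22 (SE 0.06, limma adjusted p = 4.40e-07). Lama3, a chain of the epithelial laminin-332, had 6.49, 6.11 and 6.76 CPM in shCTRL and 16 and 15.8 CPM in shMEK5, a difference of 1.18 (SE 0.08, limma adjusted p = 3.15e-06). Spp1 encodes osteopontin and was the most abundant of these genes. It had 2643, 2243 and 2258 CPM in shCTRL and 1113 and 1062 CPM in shMEK5, a difference of -1.13 (SE 0.07, limma adjusted p = 1.62e-06). Sned1, a matrix glycoprotein, fell from 12.3, 11.5 and 9.87 CPM in the shCTRL libraries to 2.58 and 2.21 CPM in the shMEK5 libraries, a difference of -1.84 (SE 0.11, limma adjusted p = 1.03e-06). Postn, the gene of periostin, rose from 0.423, 0.421 and 0.350 CPM in the shCTRL libraries to 2.25 and 2.65 CPM in the shMEK5 libraries.

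Protease genes were called higher more often than lower. Among matrix proteases and inhibitors, 15 of 33 tested genes were called higher and 7 lower, against 23.1% and 25.6% of all tested genes. The stromelysin gene Mmp3 had 292, 234 and 206 CPM in shCTRL and 56.8 and 56.4 CPM in shMEK5, a difference of -2.07 (SE 0.13, limma adjusted p = 5.10e-06). The collagenase gene Mmp13 had 4.30, 3.98 and 3.96 CPM in shCTRL and 0.894 and 0.82 CPM in shMEK5, a difference of -1.45 (SE 0.09, limma adjusted p = 1.39e-06). The shMEK5 values of Mmp13 did not overlap with the control range, and the naming rule required this of Mmp3. Mmp9 went up by 0.36 (limma adjusted p = 0.00187). The plasminogen activator gene Plau had 251, 239 and 237 CPM in shCTRL and 379 and 401 CPM in shMEK5, a difference of 0.68 (SE 0.06, limma adjusted p = 1.10e-05). Adam12, a membrane metalloprotease, had 1.77, 2.53 and 2.36 CPM in shCTRL and 9.81 and 8.60 CPM in shMEK5, a difference of 1.67 (SE 0.13, limma adjusted p = 4.25e-06), against 1.66, 2.18 and 1.75 CPM in shERK5 and a difference between the knockdowns of 1.84 (SE 0.13, limma adjusted p = 3.18e-06). Slpi, an inhibitor of serine proteases outside the list, had 284, 212 and 186 CPM in shCTRL and 72.4 and 73.3 CPM in shMEK5, a difference of -1.61 (SE 0.16, limma adjusted p = 9.61e-05).

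Integrin genes moved in both directions, and 7 (3 without shMEK5 replicate 2) of 16 tested genes were called higher and 6 lower. Itga8 had 8.97, 6.55 and 6.31 CPM in shCTRL and 1.26 and 1.18 CPM in shMEK5, a difference of -1.89 (SE 0.14, limma adjusted p = 3.54e-06). Itgb4, the hemidesmosome subunit, and its partner Itga6 fell, with differences of -0.80 (SE 0.07, limma adjusted p = 8.81e-06) and -0.41 (SE 0.05, limma adjusted p = 9.48e-05). Itgb7, best known on lymphocytes, had 107, 111 and 114 CPM in shCTRL and 60.6 and 60.8 CPM in shMEK5, a difference of -0.85 (SE 0.05, limma adjusted p = 1.02e-06), and stood at 175, 167 and 167 CPM in the shERK5 libraries. Itgb6, the epithelial partner of the alpha-v chain, rose from 1.17, 1.64 and 1.55 CPM in the shCTRL libraries to 3.79 and 4.73 CPM in the shMEK5 libraries.

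Single junction and filament genes went in both directions. E-cadherin, the adhesion molecule of epithelial cells, is encoded by Cdh1, which had 37.6, 37.2 and 37.5 CPM in shCTRL and 55.8 and 55.4 CPM in shMEK5, a difference of 0.56 (SE 0.07, limma adjusted p = 7.25e-05), and stood at 103, 113 and 121 CPM in shERK5. Epcam differed by 0.10 with overlapping groups. The desmosomal gene Pkp2 differed by 0.84 (SE 0.06, limma adjusted p = 2.34e-06), while Ppl, the gene of periplakin, was lower, with a difference of -0.86 (SE 0.09, limma adjusted p = 3.54e-05). For all junction genes 11 (8 without shCTRL replicate 1) of 34 tested genes were called higher and 6 (7 without shCTRL replicate 1) lower. Of all tested genes 23.1% were called higher and 25.6% lower, and 21.1% and 22.8% without shCTRL replicate 1. For keratins and other filament genes 7 (3 without shMEK5 replicate 1) of 13 tested genes were called higher and 4 lower, 2 of those tested having passed the filter only through shMEK5. Nes, the gene of nestin, was higher by 0.60. The most abundant filament genes named here fell. Vim, the mesenchymal filament gene, had 2203, 1904 and 1724 CPM in shCTRL and 845 and 871 CPM in shMEK5, a difference of -1.17 (SE 0.09, limma adjusted p = 9.37e-06). Krt8 and Krt18, the luminal keratin genes, fell too. Krt8 had 554, 577 and 518 CPM in shCTRL and 380.3 and 379 CPM in shMEK5, a difference of -0.53 (SE 0.05, limma adjusted p = 2.98e-05). Krt18 had 1174, 1133 and 1026 CPM in shCTRL and 702 and 759.8 CPM in shMEK5, a difference of -0.60 (SE 0.06, limma adjusted p = 4.33e-05). For these 3 filament genes both shMEK5 values lay below the lowest control.

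Regulators of epithelial and mesenchymal state were called higher more often than lower. Of 22 tested genes 10 were called higher and 3 lower, against 23.1% and 25.6% of all tested genes. Ets1 had 448, 491 and 508 CPM in shCTRL and 909 and 899.8 CPM in shMEK5, a difference of 0.91 (SE 0.06, limma adjusted p = 1.73e-06). Snai3 rose from 0.865, 1.31 and 1.14 CPM in the shCTRL libraries to 3.5 and 4.50 CPM in the shMEK5 libraries, Grhl2, an epithelial factor, by 0.44, and Sox9 by 0.60. Foxc2 fell, with a difference of -0.74 (SE 0.16, limma adjusted p = 0.00452) that was -0.48 without shMEK5 replicate 2, and Twist1 was not called at 0.19. Snai2 was listed at 0 in all 5 libraries and Zeb1 stayed under 1 CPM.

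Growth-arrest genes of the Gadd45 family rose together. Gadd45b had 21.2, 31.7 and 35.6 CPM in shCTRL and 198 and 180.3 CPM in shMEK5, a difference of 2.67 (SE 0.20, limma adjusted p = 3.07e-05). Gadd45g had 6.51, 9.75 and 11.6 CPM in shCTRL and 39.4 and 40.3 CPM in shMEK5, a difference of 2.02 (SE 0.19, limma adjusted p = 6.76e-05). Gadd45a rose by 0.50. In shERK5 Gadd45b stood at 219, 182 and 234 CPM and Gadd45g at 45.6, 40.1 and 44.6 CPM. Of classical p53 targets, Cdkn1a, the gene of p21, had 5.09, 6.18 and 5.52 CPM in shCTRL and 4.93 and 4.88 CPM in shMEK5, a difference of -0.16 (SE 0.11, limma adjusted p = 0.265) that did not pass the test, and Mdm2 was not called at 0.05. Plk2, Fas and Bmf were higher by 1.07, 1.03 and 0.90, and Sesn2 and Ddit4 lower, with differences of -0.85 (SE 0.09, limma adjusted p = 4.95e-05) and -0.95 (SE 0.12, limma adjusted p = 0.000132). Over Gadd45 and p53 genes, 13 of 28 tested genes were called higher and 5 lower.

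Cell-cycle genes were called in both directions, and the G1 and mitotic counts depended on single libraries. All 5 G1 cyclin genes were called higher (3 with either shMEK5 library left out), led by Ccne1 at 11.9, 9.94 and 11.7 CPM in shCTRL and 19.8 and 20.7 CPM in shMEK5, a difference of 0.81 (SE 0.09, limma adjusted p = 6.12e-05). In the G1 list 10 (3 without shMEK5 replicate 1) of 24 tested genes were called higher and 4 (2 without shMEK5 replicate 2) lower. For replication genes 13 (8 without shMEK5 replicate 2) of 34 tested genes were called higher and 5 (3 without shMEK5 replicate 1) lower, and Cdc6, which loads the replicative helicase, had 50.01, 48.9 and 49.9 CPM in shCTRL and 103 and 109.8 CPM in shMEK5, a difference of 1.08 (SE 0.08, limma adjusted p = 3.13e-06). The helicase subunit gene Mcm3 differed by 0.52 (SE 0.06, limma adjusted p = 5.32e-05). For mitotic genes 2 (1 without shCTRL replicate 2, shMEK5 replicate 1 or shMEK5 replicate 2) of 38 tested genes were called higher and 14 (7 without shCTRL replicate 1, 6 without shMEK5 replicate 1, 8 without shMEK5 replicate 2) lower, with a median of -0.22. Without shMEK5 replicate 1 the G1 genes called higher were 12.5% of the list, under the 17.6% of all genes, and the mitotic genes called lower were 15.8%, under 19.3%. Without shCTRL replicate 1 the mitotic share was 18.4%, under 22.8%. The share of replication genes called higher, 23.5% to 38.2%, stayed above that of all genes with any 1 of these libraries left out. Kif20a, a kinesin of cytokinesis, had 124, 116 and 109 CPM in shCTRL and 76.0 and 82.5 CPM in shMEK5, a difference of -0.55 (SE 0.07, limma adjusted p = 0.000146), and Ccnb1, the gene of cyclin B1, -0.32 (SE 0.06, limma adjusted p = 0.00146).

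Replication-dependent histone genes were the most uniform group that fell. Of 61 tested, 46 were called lower and 0 higher, 31 by at least 2-fold in the limma test, with a median of -1.04. The count called higher was also 0 at an unadjusted p under 0.05, by edgeR and by DESeq2. The summed level of the list was 11345 to 14754 CPM in shCTRL, 7452 to 7546 CPM in shMEK5 and 4574 to 6238 CPM in shERK5. Single histone genes are near-identical copies, and their transcripts lack a poly(A) tail, so their reads depend on the ribosomal-RNA-depleted total RNA libraries used. Srrt and Lsm10, which act in histone transcript processing, had differences of -0.89 (SE 0.09, limma adjusted p = 2.47e-05) and -0.50 (SE 0.08, limma adjusted p = 0.000689), and Slbp, the stem-loop binding protein, was not called at -0.07. Among histone processing and transcription genes 4 (2 without shCTRL replicate 2 or shMEK5 replicate 2; 1 without shMEK5 replicate 1) of 16 tested genes were called higher and 4 lower.

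Antioxidant genes under NRF2, the factor released from KEAP1 by electrophiles, mostly fell. In that list 5 (3 without shCTRL replicate 3 or shMEK5 replicate 1; 2 without shMEK5 replicate 2) of 30 tested genes were called higher and 19 lower, with a median of -0.23. Nqo1, a quinone reductase, had 40.5, 36.1 and 34.1 CPM in shCTRL and 16.4 and 16 CPM in shMEK5, a difference of -1.14 (SE 0.08, limma adjusted p = 3.67e-06). Enzymes that produce NADPH fell with it. G6pdx had 56.2, 46.7 and 43.7 CPM in shCTRL and 22.9 and 26.2 CPM in shMEK5, a difference of -0.96 (SE 0.11, limma adjusted p = 0.000120). Idh1 had 97.3, 79.0 and 69.8 CPM in shCTRL and 40.7 and 36.4 CPM in shMEK5, a difference of -1.06 (SE 0.12, limma adjusted p = 0.000118). In all 3 enzymes the shMEK5 libraries were the low ones, with no overlap with shCTRL, as in 4239 of 11623 tested genes. Gsta4, a glutathione transferase, was lower, with a difference of -0.83 (SE 0.09, limma adjusted p = 4.23e-05), and Gclm, which limits glutathione synthesis, gave -0.32 (SE 0.10, limma adjusted p = 0.0189), a call lost without shMEK5 replicate 1 or 2 (limma adjusted p = 0.0690 and 0.0950). The antioxidant-response letters TGACNNNGC were found on either strand in 35% of the 20 windows of list genes called lower, in 12.4% of all windows and in 14.4% of those of tested genes. In the 250 bases before the start alone these shares were 25%, 10.2% and 11.8%. Nfe2l2, the gene of NRF2 itself, is in the list and was called lower, with a difference of -0.16 (limma adjusted p = 0.0286). Its window was among those with a match. Regulators aside, the list was chosen as genes under NRF2, so a high share is part of how its members are known. Gstm5 and Txnrd1, which were higher, held a match too, and no share was computed for list genes not called lower.

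Most lysosomal and autophagy genes were called lower: 5 (2 without shMEK5 replicate 2) of 49 tested genes were called higher and 28 lower, with a median of -0.28. The protease gene Ctsl had 1695, 1659 and 1549 CPM in shCTRL and 962 and 989 CPM in shMEK5, a difference of -0.74 (SE 0.05, limma adjusted p = 2.02e-06), and Ctsa -0.74 (SE 0.06, limma adjusted p = 5.86e-06). Gla, the galactosidase, had 38.0, 40.4 and 37.2 CPM in shCTRL and 24.6 and 24.3 CPM in shMEK5, a difference of -0.63 (SE 0.06, limma adjusted p = 1.56e-05), and 44.0, 45.5 and 43.5 CPM in shERK5. Sqstm1, the autophagy receptor p62 and also a reported NRF2 target, had 2128, 2223 and 2142 CPM in shCTRL and 1413 and 1466 CPM in shMEK5, a difference of -0.59 (SE 0.04, limma adjusted p = 3.88e-06). Tfeb, the factor that drives many of these genes, was higher by 0.33 (SE 0.08, limma adjusted p = 0.00525). The E-box CACGTG was present in 29.6% of the 27 windows of lysosome and autophagy genes called lower, in 7.15% of all windows and in 10.2% of those of tested genes. No share was computed for list genes not called lower, so the value does not set the called genes apart from the rest of the list.

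**Figure D4:**
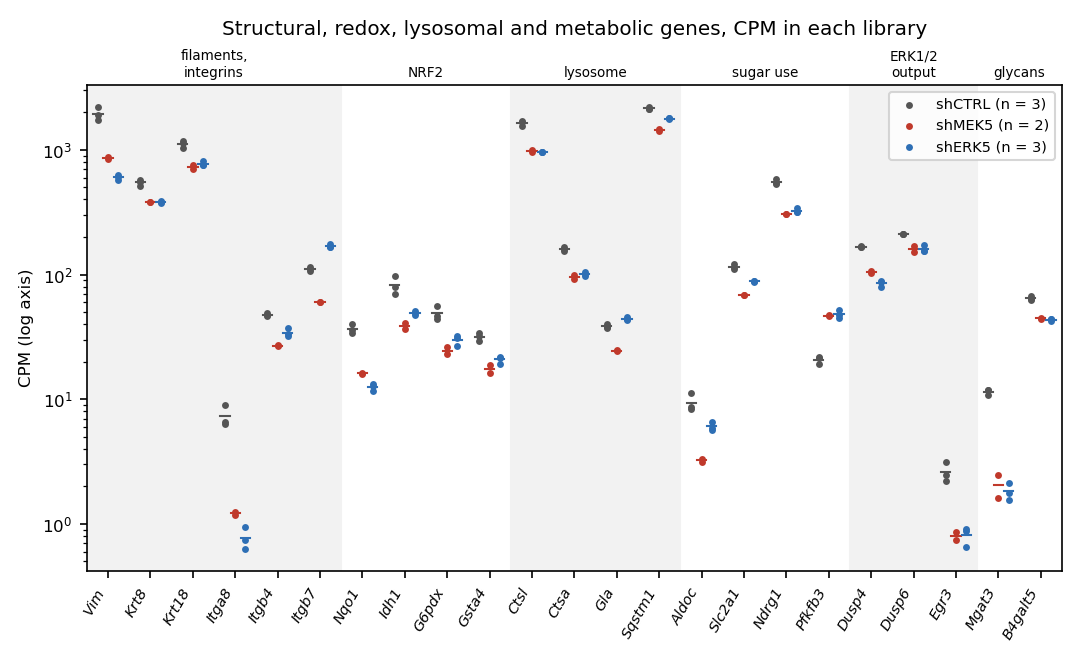
CPM of 23 genes of filaments and integrins, NRF2 response, lysosome, sugar use, ERK1/2 output and glycosylation in every library on a log axis, with points for libraries and short lines for group means. The shMEK5 points lie under all shCTRL points for every gene shown but Pfkfb3, and for Itgb7 and Gla the shERK5 points are not low.

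Most output genes of the neighbouring ERK1/2 cascade fell. Of 11 immediate and delayed output genes 3 were called higher (1 without shMEK5 replicate 1) and 8 lower, and in the list with phosphatases and inhibitors 4 (2 without shMEK5 replicate 1) of 27 tested genes were called higher and 13 lower. Dusp4 and Dusp6 encode phosphatases induced by ERK1/2. Dusp4 had 168, 169.7 and 165 CPM in shCTRL and 107 and 104 CPM in shMEK5, a difference of -0.66 (SE 0.06, limma adjusted p = 1.30e-05). Dusp6 had 211, 210.4 and 212 CPM in shCTRL and 168 and 153 CPM in shMEK5, a difference of -0.40 (SE 0.06, limma adjusted p = 0.000541). Egr3 fell from 3.15, 2.48 and 2.19 CPM in the shCTRL libraries to 0.749 and 0.862 CPM in the shMEK5 libraries. Phlda1 rose by 0.53 (SE 0.08, limma adjusted p = 0.000300), and Spry4 was not called at -0.22.

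Metabolic lists split within themselves. For glycolysis and hypoxia genes 12 of 36 tested genes were called higher and 14 lower. The aldolase gene Aldoc had 11.3, 8.65 and 8.28 CPM in shCTRL and 3.33 and 3.13 CPM in shMEK5, a difference of -1.29 (SE 0.12, limma adjusted p = 1.78e-05). The glucose transporter gene Slc2a1 had 122, 115 and 110.0 CPM in shCTRL and 69.0 and 68.9 CPM in shMEK5, a difference of -0.73 (SE 0.05, limma adjusted p = 3.54e-06). Both genes were lower in each shMEK5 library than in any control. Ndrg1, a hypoxia-induced gene, was lower, with a difference of -0.86 (SE 0.05, limma adjusted p = 1.67e-06). Pfkfb3, which makes the activator of phosphofructokinase, rose from 19.0, 21.3 and 21.9 CPM in the shCTRL libraries to 46.3 and 47.1 CPM in the shMEK5 libraries, a difference of 1.13 (SE 0.08, limma adjusted p = 2.81e-06). Of the genes under ATF4, the factor of the amino acid response, Cth, Ddit3, Chac1 and Trib3 were lower, with differences of -0.58, -0.54, -0.51 and -0.40 and limma adjusted p-values of 1.13e-05 to 5.47e-05. Asns, the asparagine synthetase gene, was higher by 0.30. Over unfolded protein and ATF4 genes 8 (5 without shCTRL replicate 3, 3 without shMEK5 replicate 2) of 41 tested genes were called higher and 16 lower. For sterol and fatty acid synthesis 4 of 39 tested genes were called higher and 14 (9 without shMEK5 replicate 2) lower, with Srebf1 lower, with a difference of -0.51 (SE 0.06, limma adjusted p = 9.54e-05), and Cyp51 higher by 0.35.

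Glycosyltransferases included one of the steepest falls. Mgat3 adds the bisecting branch that stops further branching of N-glycans. It had 11.8, 10.9 and 11.8 CPM in shCTRL and 2.46 and 1.62 CPM in shMEK5, a difference of -2.05 (SE 0.13, limma adjusted p = 1.62e-06), and 1.56, 2.14 and 1.78 CPM in shERK5. B4galt5 and St3gal4 were lower, with differences of -0.54 (SE 0.05, limma adjusted p = 2.94e-05) and -0.42 (SE 0.05, limma adjusted p = 0.000115). Across the list 8 of 28 tested genes were called higher and 11 (7 without shMEK5 replicate 2) lower.

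The other genes that fell furthest had varied roles. Fcgrt, the neonatal Fc receptor that recycles antibody and albumin, had 15.6, 15.4 and 14.3 CPM in shCTRL and 2.10 and 2.59 CPM in shMEK5, a difference of -2.27 (SE 0.10, limma adjusted p = 1.84e-07). The urea transporter gene Slc14a1 had 17.9, 18.8 and 18.6 CPM in shCTRL and 3.41 and 2.95 CPM in shMEK5, a difference of -2.22 (SE 0.08, limma adjusted p = 6.65e-08). Hhip, which binds Hedgehog ligands, had 34.6, 27.7 and 29.9 CPM in shCTRL and 9.86 and 9.84 CPM in shMEK5, a difference of -1.54 (SE 0.10, limma adjusted p = 2.23e-06). The genes of this paragraph were named by a rule that required groups not to overlap, so every shMEK5 value had to lie below the controls. Adgre5, the adhesion receptor CD97, had 9.01, 7.23 and 7.44 CPM in shCTRL and 2.29 and 1.87 CPM in shMEK5, a difference of -1.53 (SE 0.11, limma adjusted p = 3.67e-06). Ptgs1, cyclooxygenase-1, had 158, 134 and 123 CPM in shCTRL and 49.95 and 45.2 CPM in shMEK5, a difference of -1.51 (SE 0.09, limma adjusted p = 2.08e-06). Add2, an adducin of the membrane skeleton, Slc5a3, the inositol transporter, and Eya2, a transcriptional co-activator, differed by -1.51 (SE 0.14, limma adjusted p = 1.98e-05), -1.50 (SE 0.20, limma adjusted p = 0.000620) and -1.46 (SE 0.13, limma adjusted p = 1.71e-05).

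The medians of ribosomal protein and oxidative phosphorylation genes were near that of all genes, while ribosome biogenesis genes had a median of 0.19. Ribosomal protein genes had a median of 0.03, and 12 (4 without shMEK5 replicate 2) of 78 tested genes were called higher and 10 lower. For nuclear-encoded subunits of oxidative phosphorylation the median was 0.05, and 26 (15 without shMEK5 replicate 2) of 90 tested genes were called higher and 13 (7 without shCTRL replicate 2 or shMEK5 replicate 2; 6 without shMEK5 replicate 1) lower. Among ribosome biogenesis genes 12 (5 without shMEK5 replicate 2) of 25 tested genes were called higher and 2 lower, with Nop56 at 0.61 (SE 0.07, limma adjusted p = 0.000101). Small nuclear and nucleolar RNAs, whose recovery depends on fragment size, summed to 13183 to 15755 CPM in shCTRL and 15015 to 18644 CPM in shMEK5, and 13 (7 without shCTRL replicate 1, shMEK5 replicate 1 or shMEK5 replicate 2; 6 without shCTRL replicate 3) of 49 tested genes were called higher and 4 (1 without shCTRL replicate 2 or shMEK5 replicate 1) lower.

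**Figure D5:**
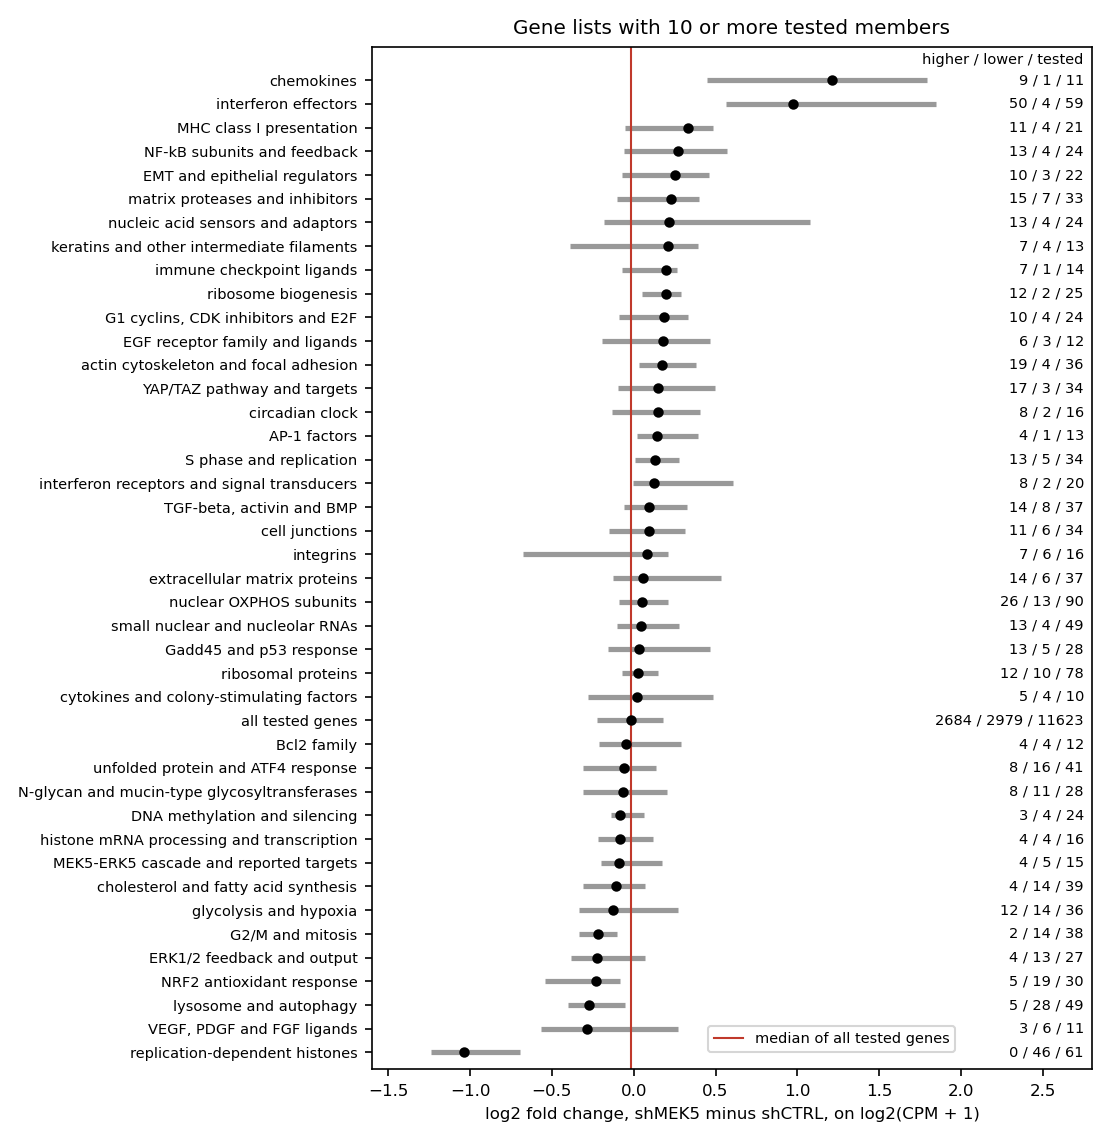
Median (point) and interquartile range (bar) of the log2 difference, shMEK5 minus shCTRL, for each gene list with 10 or more tested members, with the number called higher, called lower and tested at the right and the median of all tested genes as a line at -0.02. Chemokines and interferon effectors lie furthest right, replication-dependent histones furthest left at -1.04, and most other lists straddle the line.

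Differences between the knockdowns were tested in the same fit. shMEK5 and shERK5 differed by a limma adjusted p under 0.05 at 4581 of 11623 genes, 39.4%. Both knockdowns were set against the same shCTRL libraries, so their differences from shCTRL share that error. For Usp18, Ifit1 and Oas1a the values in shERK5 lay between those of the other groups. Usp18 differed from shCTRL by 3.30 in shMEK5 and 1.36 in shERK5, a difference between knockdowns of 1.94 (SE 0.11, limma adjusted p = 1.29e-06). Ifit1 gave 2.26 and 0.36, and the difference was 1.90 (SE 0.07, limma adjusted p = 1.06e-07). For Oas1a the values were 1.41 and 1.17, and the difference was 0.24 (SE 0.08, limma adjusted p = 0.0315). Ifnb1, with 1 read in each shERK5 library, differed between the knockdowns by 1.77. It passed the level filter only through shMEK5 and so had to differ, and this value is a description. Mapk7 itself stood at 6.59, 6.33 and 6.66 CPM in the shERK5 libraries.

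Some genes moved apart in direction. Ccl2 differed from shCTRL by 1.65 in shMEK5 and -1.13 in shERK5, with a difference between them of 2.78 (SE 0.14, limma adjusted p = 5.51e-07). Maff, a small Maf factor, gave 0.57 and -1.38, and the difference was 1.95 (SE 0.08, limma adjusted p = 1.52e-07). Sgk1 and Ccnd1 were higher in shMEK5 and lower in shERK5 than in shCTRL, with differences between the knockdowns of 1.06 (SE 0.05, limma adjusted p = 4.27e-07) and 0.61 (SE 0.05, limma adjusted p = 1.28e-05). Itgb7 went the other way, lower in shMEK5, with a difference of -1.47 (SE 0.05, limma adjusted p = 6.04e-08). For Gadd45b, Thbs1, Lama3 and Sned1 the difference between the knockdowns was -0.16 (SE 0.20, limma adjusted p = 0.579), 0.11 (SE 0.06, limma adjusted p = 0.210), 0.04 (SE 0.08, limma adjusted p = 0.767) and 0.05 (SE 0.11, limma adjusted p = 0.766), which did not pass the test and does not show that the levels are equal.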

How the data were processed

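Total RNA of 8 samples was depleted of ribosomal RNA and sequenced with a strand-marking kit, per the labels' protocols. Reads were aligned with STAR to mm10, per the submitters' processing notes. The counting program, its strand setting and its rule for reads that fit several places were not given in the sources used here. Deposited tables hold CPM per gene and library, which the authors scaled to the reads assigned to genes. Whole reads were recovered from the CPM steps (100% of values within 0.01 of a whole read), and depth and floors follow from them.

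limma 3.58.1 (R 4.3.3; trend and robust options) was fitted to log2(CPM + 1) over all 8 libraries with a mean per group, because shMEK5 has only 2 libraries. Genes with 1 CPM in at least 2 libraries were tested, with Benjamini-Hochberg adjustment over all of them. Alternatives used edgeR 4.0.16 and DESeq2 1.42.0 on the recovered reads, other scalings, pseudocounts and filters, a replicate block, and each library left out. The fit was checked on simulated data for 11623 genes. It recovered 23 of 50 genes changed 1.25-fold, 46 of 50 changed 1.5-fold and 50 of 50 changed 2-fold, with 14 false calls. Many changes of about 1.25-fold were thus missed there. Read intervals are exact and floors use 3 reads; both cover counting error only.

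Genes named are Map2k5 and Mapk7, the 12 with the largest change in each direction among called genes with a mean of at least 5 CPM, groups that do not overlap and an established symbol, histones aside, the most changed and preset key members of each list, and further members named for their role or after their values were seen. Some genes that this rule names are not reported here. The comparison, its members and the lists were chosen with earlier results of these data known. Promoter windows came from RefSeq (GRCm38.p6), and the motifs AANNGAAA and GGGNNNTTCC were added after the Ifnb1 window was read. Python 3.11.15, pandas 2.3.3, SciPy 1.17.1 and matplotlib 3.10.9 were used.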

Additional observations from a re-analysis of the deposited data

How the results depend on the processing

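The total of 5663 called genes stayed between 5123 (a filter of 5 CPM) and 5785 (the 5 compared libraries alone) under the 11 alternatives that kept every shCTRL and shMEK5 library. Leaving out 1 library gave 5060 to 5103 calls without a shCTRL library, and 4279 and 3929 without shMEK5 replicate 1 and 2, where the lone shMEK5 library is assumed to vary like the other groups. With TMM factors 2923 genes were called higher and 2763 lower, so which direction had more calls depends on the scaling. Counts of changes of at least 2-fold depend on the pseudocount and the tool. The 191 genes called at least 2-fold higher became 84 with a pseudocount of 5, 304 by edgeR and 304 by DESeq2. The 126 called at least 2-fold lower became 192 with a pseudocount of 0.25, 56 with 5, 211 by edgeR and 217 by DESeq2. Map2k5 stayed between -1.34 and -1.10 under every alternative run.

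Among the 180 named genes that were called, 11 lost the call in at least 1 of 16 alternatives, 10 of them only when a library was left out, and 0 changed direction. With the replicate number as a block (a paired fit) 5763 genes were called. The labels do not say whether the numbers pair samples. Same-numbered shCTRL and shMEK5 libraries deviated from their group means with correlations of -0.13 and 0.0312. Same-numbered shMEK5 and shERK5 libraries gave 0.465 and 0.518, a hint from the data that the labels do not explain. With only 2 shMEK5 libraries their deviations are mirror images, so none of these values comes from independent pairs. Differently numbered libraries of different groups gave -0.518 to 0.4. The 2 knockdowns were compared without the block. Genes with no read could hold up to 0.0725 CPM.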

Other observations

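Rhox5 was the fifth of the 12 genes that rose furthest by the naming rule and belongs to none of the groups above. It is a homeobox gene of the X chromosome (Entrez 18617) that is active in the male germ line and placenta and is known as a gene silenced by DNA methylation in most other cells. It had 3.09, 3.20 and 2.71 CPM in shCTRL and 23.7 and 25.6 CPM in shMEK5, a log2 difference of 2.68 (SE 0.10, limma adjusted p = 6.65e-08), and 3.48, 4.47 and 3.96 CPM in shERK5. The naming rule required both shMEK5 values to lie above the controls. Both also stood far above the shERK5 values, and the difference between the knockdowns was 2.37 (SE 0.10, limma adjusted p = 1.68e-07). Of 27 germline genes in the list only Rhox5 and Tex101 passed the level filter. Tex101 rose from 0.173, 0.515 and 0.241 CPM in the shCTRL libraries to 1.74 and 2.17 CPM in the shMEK5 libraries. It passed the filter through shMEK5 alone and so had to differ, and its difference of 1.18 is a description. Dnmt1, the maintenance DNA methyltransferase, was higher by 0.32 (SE 0.06, limma adjusted p = 0.00165), and Trim28, the co-repressor of retroelement silencing, was lower, with a difference of -0.50 (SE 0.05, limma adjusted p = 1.76e-05). Over DNA methylation and silencing genes 3 (1 without shMEK5 replicate 1) of 24 tested genes were called higher and 4 (2 without shCTRL replicate 1; 1 without shCTRL replicate 3, shMEK5 replicate 1 or shMEK5 replicate 2) lower.

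The circadian repressor gene Nr1d1, which encodes REV-ERB-alpha, had 2.21, 2.62 and 3.00 CPM in shCTRL and 8.79 and 10.2 CPM in shMEK5, a difference of 1.55 (SE 0.11, limma adjusted p = 3.68e-06), and 9.66, 10.3 and 11.4 CPM in shERK5. Its relative Nr1d2 was not called at 0.11, Per2 was higher by 0.38 (SE 0.07, limma adjusted p = 0.00129) and the output gene Dbp was not called at -0.28. Over the clock list 8 of 16 tested genes were called higher and 2 (1 without shMEK5 replicate 1) lower. Times of collection were not given in the labels.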
